A study of Mus musculus with 209 samples.

Results

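The genes described here encode 10 subunits of the machinery that cuts nuclear pre-mRNA and prepares it for its poly(A) tail: Cpsf1, Cpsf2, Cpsf3, Cpsf4, Cpsf6, Cpsf7, Cstf1, Cstf2, Cstf3 and Clp1. They were taken by symbol from 24450 gene rows of the count tables, and all 10 symbols were found. The family was chosen by the measured CPM of Cpsf3, which had been seen higher in knockout oocytes and lower in knockout 2-cell samples of these same data, so the differences of the members between knockout and wild type are given as a description and support nothing. The tables hold RNA-seq read counts per gene for 54 of the 209 samples of a mouse germline and embryo series. The other 155 samples were not analysed here.

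Nearly every mRNA of a mammalian cell, apart from replication-dependent histone mRNAs, gets its end by a cut downstream of a polyadenylation signal and the addition of a poly(A) tail. The cleavage and polyadenylation specificity factor, CPSF, reads the signal and makes the cut, and the cleavage stimulation factor, CstF, binds GU-rich sequence downstream of it. Of the cleavage factors, CFIm binds upstream sequence, and both CFIm and CFIIm help cleavage. A fully grown mouse oocyte transcribes little, lives on stored mRNA and lengthens poly(A) tails in the cytoplasm with CPEB and CPSF subunits, until the embryonic genome is switched on in force at the 2-cell stage.

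Oocytes and 2-cell samples came from superovulated C57BL/6 females aged 6 to 8 weeks. The KO groups carry the label N14 maternal KO, read here as a loss of Nlrp14, an oocyte protein of the NLR family, in the mother. There were 19 KO and 14 WT MII oocytes, collected 14 to 15 hours after hCG, and 9 KO and 8 WT 2-cell samples, collected at 42 to 43 hours. The labels give C57BL/6 or PWK as the males mated with these females without saying which sired a 2-cell sample. The way the knockout was made is not given in the sources used here. Each of these libraries is marked as a single-cell library and no mother is named, so each group is treated as 1 sample. Differences between these groups carry no p-value, and intervals cover counting error only. The epiblast samples were 2 libraries of IVC epiblast and 2 of E6.5 epiblast marked ND, all WT from C57BL/6 mothers and fathers. The labels tie the age of 6 to 8 weeks to females that gave oocytes and preimplantation embryos, and the age of the epiblast mothers is not given in the sources used here. The meaning of ND is not given in the sources used here.

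Total gene counts ran from 4585916 to 10637866 in KO oocytes and from 3933604 to 13052327 in WT oocytes, and from 2704050 to 15007301 in KO 2-cell and from 3788348 to 10303580 in WT 2-cell samples. The targeted gene followed the labels. Nlrp14 stood at 36.7 CPM (counts per 1000000 gene counts) in KO oocytes against 726 CPM in WT oocytes, and at 63.7 CPM in KO against 259.6 CPM in WT 2-cell samples, with no overlap of libraries at either stage. Oocyte libraries fell into technical sets: 7 KO and 10 WT libraries had more than 0.01% of counts on ERCC spike-in RNA, 10 KO and 3 WT were under that share and had less than 1% of counts on the ribosomal precursor Rn45s, and 2 KO and 1 WT were under that share with more Rn45s. All 17 2-cell libraries were over 0.01% spike-in RNA. A pair of 2-cell libraries stood apart. KO replicate 3, the shallowest, was the highest of its group for Cpsf1, Cpsf4, Cpsf6, Cpsf7, Cstf1, Cstf2 and Clp1. It also had the highest shares of spike-in RNA (0.0957%) and Rn45s (0.934%) among KO 2-cell samples. WT replicate 8, the deepest of its group, was the lowest of its group for Cpsf4, Cpsf6, Cstf1, Cstf3 and Clp1, and the highest for Cstf2. Its shares of spike-in RNA (0.0583%) and Rn45s (0.62%) were the lowest among WT 2-cell samples. Summed markers of the 2-cell stage (Zscan4c, Zscan4d and Zfp352) were 109 to 1848 CPM in KO and 368 to 879.7 CPM in WT 2-cell samples, against 0.322 to 5.03 CPM in KO and 0.919 to 12.1 CPM in WT oocytes. The 7 oocyte markers summed to 5201 to 17327 CPM in KO and 3599.6 to 9641 CPM in WT 2-cell samples, pooled 11827 CPM in KO and 6505 CPM in WT. Bmp15 had 5286 CPM in KO and 2769.9 CPM in WT, and Oosp1 4070.2 and 2879 CPM. Gdf9 was at 1897 CPM in KO and 513 CPM in WT, and Nlrp5 at 362 and 121 CPM. Zp1 had 57.9 CPM in KO and 46.6 CPM in WT, and Zp2 114 and 102 CPM. Zp3 went the other way, at 40.1 CPM in KO and 72.7 CPM in WT. Of 9 cumulus and granulosa markers, Cyp19a1 held most of the sum, at 80.5 CPM in KO against 59.5 CPM in WT oocytes. Amh, Fshr and Foxl2 had no count in KO oocytes, and Ptx3 had none in WT oocytes. The part of these markers in the members' values was not tested.

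The promoters of 9 members were found in RefSeq (GRCm38.p6), as 250 bases before to 50 bases after the start of the gene. Those of Clp1, Cpsf4, Cpsf3 and Cpsf2 are shown because the results turn on these genes. Each is written 5′ to 3′ along the gene, with matches to the searched motifs on either strand in capitals. Clp1 lies on the minus strand at chr2:84727238-84727537, Cpsf4 on the plus strand at chr5:145166963-145167262 (the first of its 2 listed starts), Cpsf3 on the plus strand at chr12:21286047-21286346 and Cpsf2 on the plus strand at chr12:101975724-101976023.
Clp1: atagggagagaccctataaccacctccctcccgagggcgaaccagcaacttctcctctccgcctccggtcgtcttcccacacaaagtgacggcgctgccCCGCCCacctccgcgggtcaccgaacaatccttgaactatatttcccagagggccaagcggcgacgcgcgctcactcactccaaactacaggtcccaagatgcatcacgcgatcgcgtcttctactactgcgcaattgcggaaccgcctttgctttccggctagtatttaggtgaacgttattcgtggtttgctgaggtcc
Cpsf4: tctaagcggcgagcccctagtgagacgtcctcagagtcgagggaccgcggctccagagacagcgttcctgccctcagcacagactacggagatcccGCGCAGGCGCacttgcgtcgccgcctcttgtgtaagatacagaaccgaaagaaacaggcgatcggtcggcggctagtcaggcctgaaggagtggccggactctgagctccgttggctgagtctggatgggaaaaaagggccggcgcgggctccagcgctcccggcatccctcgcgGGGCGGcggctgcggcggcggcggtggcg
Cpsf3: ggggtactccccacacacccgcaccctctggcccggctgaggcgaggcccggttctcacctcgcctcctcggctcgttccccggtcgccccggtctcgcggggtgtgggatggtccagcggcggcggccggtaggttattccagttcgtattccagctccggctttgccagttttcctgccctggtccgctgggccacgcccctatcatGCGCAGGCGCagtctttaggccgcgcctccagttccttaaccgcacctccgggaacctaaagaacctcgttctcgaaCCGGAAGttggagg
Cpsf2: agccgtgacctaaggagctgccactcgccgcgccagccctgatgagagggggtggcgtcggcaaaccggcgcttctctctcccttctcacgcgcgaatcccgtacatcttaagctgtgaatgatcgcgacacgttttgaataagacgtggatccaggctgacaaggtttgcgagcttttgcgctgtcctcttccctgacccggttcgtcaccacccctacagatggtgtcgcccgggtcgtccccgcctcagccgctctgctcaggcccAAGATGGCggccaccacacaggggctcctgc

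All 9 promoters were rich in G and C, at 57.7 to 67.3% against a median of 52.7% over 32851 promoters of the same length, and held 24 to 35 CG pairs against a median of 7. The TATA box (TATAAA) and the cyclic AMP response element (TGACGTCA) were in none of the 9, against 13.6% and 1.79% of all promoters. The Sp1 and Klf box GGGCGG was in 6 of 9 (Clp1, Cpsf4, Cpsf6, Cpsf7, Cstf2 and Cstf3), against 35.7% of all. A match to the NRF1 motif was in Cpsf3 and Cpsf4, against 4.6% of all. An ETS match, CCGGAAG, was in Cpsf3, Cpsf7 and Cstf3, against 8.86%. The YY1 match AAGATGGC was in Cpsf2 and Cstf1, against 2.75%, the E-box CACGTG was in Cstf1, against 7.15%, and the NFY box CCAAT was in Cstf3, against 37.4%. Both strands were searched, and in the sequences shown no match overlapped another. A match says only that these letters occur there.

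In oocytes, Cpsf3 was the only member at 10 CPM or more in either pool that lay 2-fold or more apart between KO and WT, and it reached that level only through the KO pool. Cpsf3 is the endonuclease that makes the cut. Across 19 KO oocytes its lowest, median and highest levels were 5.71, 23.7 and 53.9 CPM, against 0, 5.17 and 22.6 CPM across 14 WT oocytes. Each KO oocyte was over the WT median and 11 were over every WT oocyte, so the groups overlapped. The pooled level was 24.6 CPM in KO and 8.27 CPM in WT, a log2 ratio of 1.57 (95% interval 1.47 to 1.68). Among all 6325 genes at this level, 2.04% were 2-fold or more higher and 2.39% lower in KO, and the libraries of the groups did not overlap for 0.0316%. None of the 6 members at 10 CPM was lower by 2-fold, and none had groups without overlap.

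The Cpsf3 difference stood in 2 of the 3 technical sets. In libraries over 0.01% spike-in RNA the pooled level was 18.5 CPM in 7 KO and 5.18 CPM in 10 WT oocytes (log2 ratio 1.84). In the low-Rn45s set it was 29.5 CPM in 10 KO and 10.2 CPM in 3 WT oocytes (1.54). In the remaining set it was 21.9 CPM in 2 KO oocytes and 22.6 CPM in the 1 WT oocyte, a ratio of -0.04, and this WT library was the highest of all 14. The sets were spread unevenly over the groups. Cpsf3 overlaps Itgb1bp1 in RefSeq, and whether counting used the strand is not given in the sources used here, so reads of the pair may not be told apart. Itgb1bp1 itself was at 56.6 CPM in KO and 65.1 CPM in WT oocytes (-0.20). The same holds for Cpsf1 with Adck5, Cpsf7 with Tmem216, Cstf1 with Aurka and Cstf2 with Nox1.

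**Figure D1:**
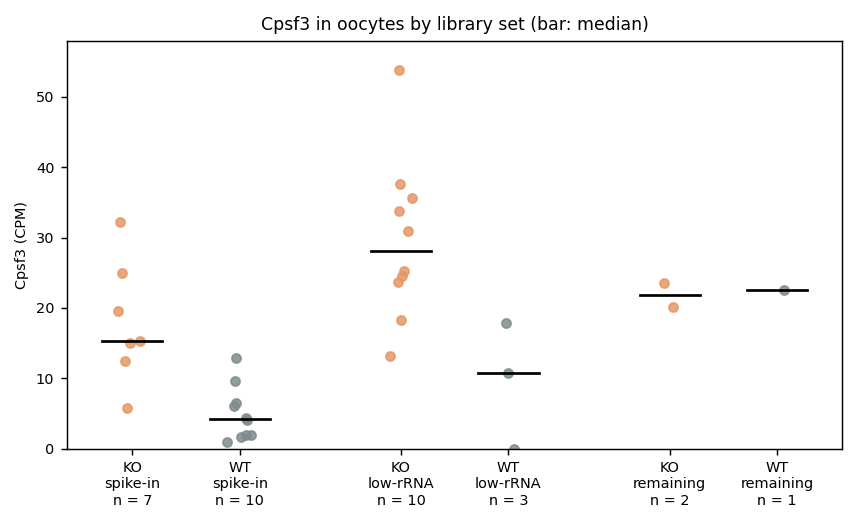
Level of Cpsf3 (CPM, linear axis) in each oocyte library, by technical library set, KO to the left of WT in each set; points are libraries and bars are medians. KO libraries lie mostly above WT libraries in the spike-in and low-Rn45s sets, and the single WT library of the remaining set (22.6 CPM) lies between the 2 KO libraries.

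The other CPSF subunits moved little in oocytes or were near the detection limit. Cpsf2, the inactive partner of Cpsf3 in the nuclease pair, ran from 79.6 through a median of 125 to 179 CPM in KO oocytes, against 51.6, 80.4 and 144 CPM in WT oocytes. Of 19 KO oocytes 18 were over the WT median, the groups overlapped, and the pooled ratio was 0.47 (0.44 to 0.51). Cpsf1, the large scaffold, and Cpsf4, a zinc finger protein that contacts the polyadenylation signal, stayed under 10 CPM in both pools. Cpsf1 had 3.32 CPM in KO and 1.3 CPM in WT oocytes, and Cpsf4 had 3.36 CPM in KO and 4.83 CPM in WT oocytes.

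Of the CFIm subunits, which bind UGUA upstream of the cut and bear on the choice among sites, Cpsf6 had 34.9 CPM in KO and 30.8 CPM in WT oocytes (0.18, 0.12 to 0.24), and Cpsf7 was under 1 CPM in both pools. Of the CstF subunits, Cstf1, the WD-repeat subunit, was the most shifted, with 35.9, 101 and 177 CPM as lowest, median and highest in KO and 48, 71.1 and 122 CPM in WT oocytes (pooled ratio 0.42, 0.38 to 0.46). The WT range lay inside the KO range. Cstf2, the RNA-binding subunit, and Cstf3, the scaffold that joins the others, had ratios of -0.28 and -0.02. Clp1, an RNA kinase that is part of CFIIm and of the tRNA splicing endonuclease complex, was barely seen, at 0.933 CPM in KO and 0.165 CPM in WT oocytes, and 9 of 14 WT oocytes had no count.

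Relative to spike-in RNA, in the 7 KO and 10 WT oocytes with more than 0.01% of it, the median ratio of all genes was 0.57. Cpsf3 had a ratio of 2.33, with Cpsf2 at 1.03 and Cstf1 at 1.17. Spike-in RNA took 0.0285 to 0.0389% of counts in KO and 0.0382 to 0.0586% in WT oocytes of that set. Whether each cell got the same amount is not given in the sources used here, so total RNA per cell and the amount added cannot be told apart.

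At the 2-cell stage 5 members lay 2-fold or more lower in KO by CPM: Cpsf4, Cpsf6, Cstf1, Cstf3 and Clp1. Of 10 members, 8 reached 10 CPM in either pool, and Cpsf4 did so only through the WT pool. None was 2-fold higher. Among all 8416 genes at this level 31.6% were 2-fold or more lower and 5.96% higher, with a median of -0.35 against -1.27 over the 8 members. No member had groups without overlap, which 1.7% of all genes had.

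Clp1 had 23.3, 40.9 and 372 CPM as lowest, median and highest in KO 2-cell samples, against 71.6, 208 and 338 CPM in WT. KO replicate 3 was the 372 CPM library and lay above every WT sample, while 7 of 9 KO samples lay below every WT sample. The pooled ratio was -1.78 (-1.84 to -1.72), and -2.49 without KO replicate 3 and WT replicate 8. Cpsf4 had 1.99, 4.36 and 17.4 CPM in KO, against 6.99, 32.7 and 51.3 CPM in WT, a pooled ratio of -2.26 (-2.44 to -2.09). Here 6 of 9 KO samples lay below every WT sample, and the highest KO and lowest WT values were again KO replicate 3 and WT replicate 8, without which the ratio was -2.71.

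Cstf1 ran over 4.96, 24.8 and 52.9 CPM in KO and 17.5, 101 and 163 CPM in WT 2-cell samples, a pooled ratio of -1.54. Each KO sample was under the WT median, and 2 were under every WT sample. Cstf3 ran over 3.87, 10.2 and 32.2 CPM in KO and 13.3, 32.2 and 65.7 CPM in WT (-1.32). Cpsf6 ran over 20.3, 30.3 and 117 CPM in KO and 26.6, 98.2 and 155 CPM in WT (-1.23). Without KO replicate 3 and WT replicate 8 the 3 ratios were -1.93, -1.67 and -1.67.

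Cpsf3 was lower by less than 2-fold: 4.72, 9.07 and 24.1 CPM in KO against 9.44, 24.4 and 34.8 CPM in WT 2-cell samples. Each KO sample was under the WT median, and 6 were under every WT sample. The pooled ratio was -0.71 (-0.85 to -0.57). It was -1.21 without KO replicate 4, the deepest library of the series' 2-cell samples at 15007301 counts and the highest KO sample for Cpsf3. Cpsf1 and Cpsf7 stayed under 10 CPM, at 1.65 and 1.07 CPM in KO against 4.83 and 5.13 CPM in WT.

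Cpsf2 and Cstf2 went the other way. Cpsf2 had 78.9, 108 and 148 CPM in KO, against 41.1, 66.4 and 94.6 CPM in WT 2-cell samples. Each KO sample was over the WT median, and 7 were over every WT sample, with a pooled ratio of 0.69 (0.62 to 0.75). Cstf2 had 9.37, 28.3 and 42.5 CPM in KO, against 11.1, 17.2 and 44.8 CPM in WT, where 44.8 CPM was WT replicate 8. Its ratio was 0.27 (0.16 to 0.39) with that library and 0.76 without it and KO replicate 3.

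How much of this is a shift of all genes depends on what the counts are set against. With edgeR's TMM factors 14% of genes were 2-fold higher and 23.6% lower in KO 2-cell samples, and the members past 2-fold were Cpsf2 higher and Cpsf4, Cstf1 and Clp1 lower. With DESeq2 size factors the shares were 11.6% and 24.9%, and Cpsf4, Cstf1, Cstf3 and Clp1 were lower. Spike-in RNA took 0.0478 to 0.0957% of counts in KO and 0.0583 to 0.135% in WT 2-cell samples. Relative to it the ratios of the genes had a median of 0.47, with 29.6% higher and 17.3% lower, Cpsf2 was at 1.51, Cstf2 at 1.10 and Cpsf4 at -1.44. On that scale Clp1 was at -0.96, Cstf1 at -0.72, Cstf3 at -0.49 and Cpsf6 at -0.40, and Cpsf3 changed direction to 0.12.

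**Figure D2:**
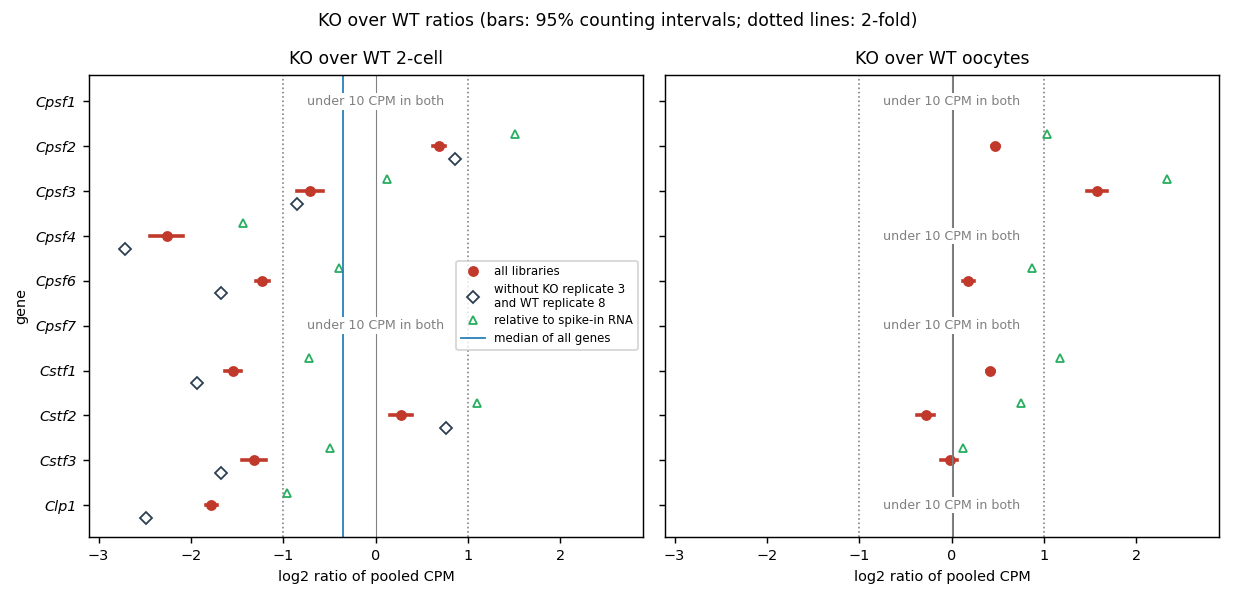
Log2 ratio of pooled CPM, KO over WT, for each member in 2-cell samples (left) and oocytes (right); circles with 95% counting intervals use all libraries, diamonds leave out KO replicate 3 and WT replicate 8, triangles are set against spike-in RNA in libraries with more than 0.01% of it, and dotted lines mark 2-fold. In 2-cell samples Clp1, Cpsf4, Cstf1, Cstf3 and Cpsf6 lie left of the 2-fold line as circles, Cpsf2 and Cstf2 lie right of 0, and each triangle lies right of its circle.

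Across the 17 2-cell libraries Spearman's rho of CPM over the 10 pairs of the 5 lower members ran from 0.61 (Cpsf6 and Cstf3) to 0.882 (Cpsf4 and Cpsf6). These genes were taken for being lower in KO, so pooling the genotypes by itself raises such values. Within the 9 KO samples the pairs ran from 0.0333 (Cpsf6 and Cstf3) to 0.733 (Cpsf6 and Clp1), and within the 8 WT samples from 0.429 (Cpsf6 and Cstf3) to 0.976 (Cpsf6 and Cstf1). Cpsf2 with each of the 5 had -0.804 to -0.502 over all 2-cell samples, -0.55 to 0.317 within KO and -0.786 to -0.167 within WT. These are descriptions over libraries that differ in depth. Over all 50 oocyte and 2-cell libraries, the genes with levels most like those of Cpsf3 among 8782 were Erlin1 (rho 0.712), Sun1 (0.703), Taldo1 (0.702), Ddx39 (0.697) and Zp3 (0.696).

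All 2-cell libraries were of the spike-in set, but only 7 of 19 KO and 10 of 14 WT oocytes were. A difference between stages over all libraries can thus include one between technical sets. Between stages, Clp1 showed the widest difference of the members. It was at 183 CPM in WT 2-cell samples against 0.165 CPM in WT oocytes, a log2 ratio of 10.11 (9.45 to 10.87), with no overlap of libraries. WT oocyte replicate 14 held 13 of the 18 Clp1 counts of the WT oocytes, and without it the ratio was 11.83. In KO it was at 53.2 CPM in 2-cell samples against 0.933 CPM in oocytes, a ratio of 5.83 (5.59 to 6.09), again with no overlap. Clp1 was the only one of 8 members in WT, and of 7 in KO, whose libraries did not overlap between stages, against 23.3% of all genes in WT and 10.6% in KO. Relative to spike-in RNA the stage ratio of Clp1 was 10.09 in WT and 4.24 in KO.

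In WT, Cpsf4, Cpsf6 and Cpsf3 were also 2-fold or more higher at the 2-cell stage, and no member was 2-fold lower. Clp1, Cpsf4 and Cpsf3 were compared only because they passed 10 CPM in the 2-cell pool where they were high, so the count of members higher is no support. Cpsf4 had 26.9 CPM in 2-cell samples and 4.83 CPM in oocytes (2.48). Cpsf6 had 81.7 CPM in 2-cell samples and 30.8 CPM in oocytes (1.41). Cpsf3 had 20.4 CPM in 2-cell samples and 8.27 CPM in oocytes (1.31). Of all 8532 genes, 41.1% were higher and 14.3% lower. With TMM factors these shares were 26.3% and 29.4%, Cpsf4 and Clp1 were the members higher and Cpsf2 was lower. By CPM with only the 10 oocytes of the spike-in set, Clp1, Cpsf4, Cpsf6 and Cpsf3 were again the members higher. Of all genes 42.1% were then higher and 12.8% lower, and Cpsf3 had 5.18 CPM in those oocytes. Relative to spike-in RNA the median of all genes was -0.43, Cpsf4 was at 1.13, Cpsf3 at 0.86, Cpsf6 at 0.02 and Cpsf2 at -1.28.

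In KO, Clp1 was the only member 2-fold higher and Cstf1 the only one 2-fold lower in 2-cell samples, at 26.5 CPM against 109 CPM in KO oocytes (-2.05, -2.12 to -1.97). Each KO 2-cell sample was under the KO oocyte median of Cstf1. Of all 7179 genes, 23.6% were higher and 17.4% lower. With TMM factors these shares were 14.9% and 23.8%, and Clp1 was higher and Cpsf3 and Cstf1 lower. Cpsf3 had a median of 9.07 CPM in KO 2-cell samples against 23.7 CPM in KO oocytes, with a pooled ratio of -0.98, just short of 2-fold. Relative to spike-in RNA, with those 7 oocytes only, the median of all genes was -0.64. Cstf1 was then at -2.86, Cpsf3 at -1.35 and Cpsf6 at -1.25. Both the libraries and the scale thus differ from those of the CPM ratios over all libraries. Cpsf6 had 48.2 CPM in those 7 oocytes against 34.9 CPM over all 19. Without KO 2-cell replicate 5 the members past 2-fold were Clp1 and Cstf2 higher and Cpsf3 and Cstf1 lower. Over all libraries, the median levels of Cpsf3 in order were 24.4 CPM in WT 2-cell samples, 23.7 CPM in KO oocytes, 9.07 CPM in KO 2-cell samples and 5.17 CPM in WT oocytes. The libraries of each neighbouring pair in this order overlapped. In the spike-in set the order was the same, but KO oocytes had 15.3 CPM, further below WT 2-cell samples, and WT oocytes 4.17 CPM. The KO and WT stage comparisons use separate libraries, and the difference between them was not tested.

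**Figure D3:**
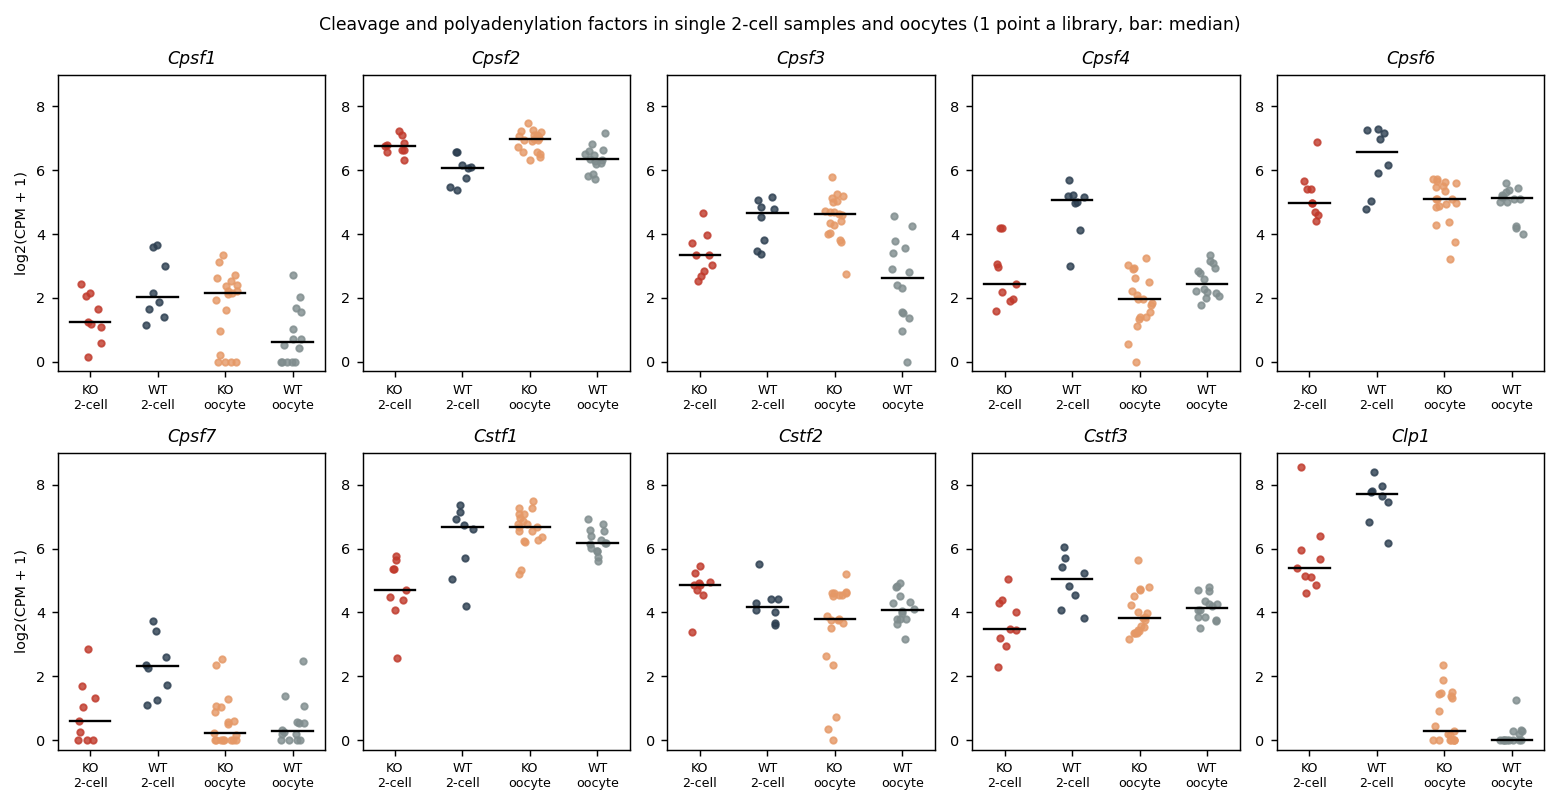
Level of each member as log2(CPM + 1) in every single 2-cell sample and oocyte library; the groups run KO 2-cell, WT 2-cell, KO oocyte, WT oocyte from left to right, points are libraries and bars are medians. Clp1 lies high in both 2-cell groups (pooled 53.2 CPM in KO and 183 CPM in WT) and near 0 in both oocyte groups, and Cpsf3 has its lowest median in WT oocytes.

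The 2-cell counts were also split by the authors into maternal and paternal alleles. The split needs a father of another strain than the C57BL/6 mother, which among the males named is PWK. Paternal counts of Clp1 were found in all 9 KO and all 8 WT 2-cell samples. The lowest paternal share of Clp1 in a library was 20% in KO and 42% in WT. Stored oocyte mRNA carries the maternal allele alone, and mRNA made from the embryo's own genome can carry either. Of 10 members, 7 had 50 or more allele counts in both groups, and the paternal share was lower in KO for 6 of these, as it was for 82.5% of 9419 genes. The median paternal share of all genes was 3.34% in KO and 21.6% in WT 2-cell samples.

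Clp1 had the most even split: 40.7% paternal in KO (38.2 to 43.3%, Clopper-Pearson 95%, counting error only) and 51.8% in WT (50.1 to 53.5%). Without KO replicate 3 the KO share was 50%, close to the WT share. Both alleles of Clp1 were lower in KO, with log2 ratios of -1.49 for the maternal and -2.13 for the paternal allele. Among all genes of its group its share stood at percentile 91.6 in KO and 86.1 in WT.

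Cstf1 was 18.1% paternal in KO (15.5 to 20.9%) and 37.7% in WT (35.3 to 40.2%). Cstf3 was 13% paternal in KO (9.34 to 17.4%) and 32.3% in WT (28 to 36.8%). Its KO share was 19.9% without KO replicate 4. Cpsf6 was 25.2% paternal in KO (22.7 to 28%) and 37.3% in WT (35.2 to 39.4%). For these genes the intervals of the groups did not meet with all libraries in. In each, the paternal allele was further down in KO than the maternal one, with paternal and maternal ratios of -2.52 and -1.06 for Cstf1, -2.50 and -0.82 for Cstf3, and -2.09 and -1.27 for Cpsf6. Cpsf1 was 31.7% paternal in KO, from 60 allele counts, and 66.1% in WT, from 109, and its WT share was 75.8% without WT replicate 8. Paternal Cpsf1 counts were found in 3 of 9 KO and 6 of 8 WT libraries. In the 5 KO libraries with 5 or more allele counts its share ran from 0 to 100%, with a median of 0. In the 6 such WT libraries it ran from 0 to 96.4%, with a median of 82%.

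Cpsf2 was nearly all maternal, at 3.09% paternal in KO (2.51 to 3.76%) and 8.15% in WT (6.71 to 9.78%). Its higher KO level was on the maternal allele, with a ratio of 0.82 (0.72 to 0.92) against -0.66 (-1.07 to -0.24) for the paternal allele. Cstf2, which lies on the X chromosome, had 3 paternal counts of 690 in KO (0.435%, and 0.152% without KO replicate 1) and 0 of 362 in WT, which allows a share of up to 1.01%. A male embryo carries no paternal X, so the share of Cstf2 cannot be read like those of the other members. Cpsf3, Cpsf4 and Cpsf7 had 19, 33 and 15 allele counts in KO and are not compared. Only 2.44% of the Cpsf3 counts and 9.43% of the Cpsf4 counts of KO were assigned to an allele, and 22.4% of those of Cpsf7, against 39.5% of the counts of all genes in KO.

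**Figure D4:**
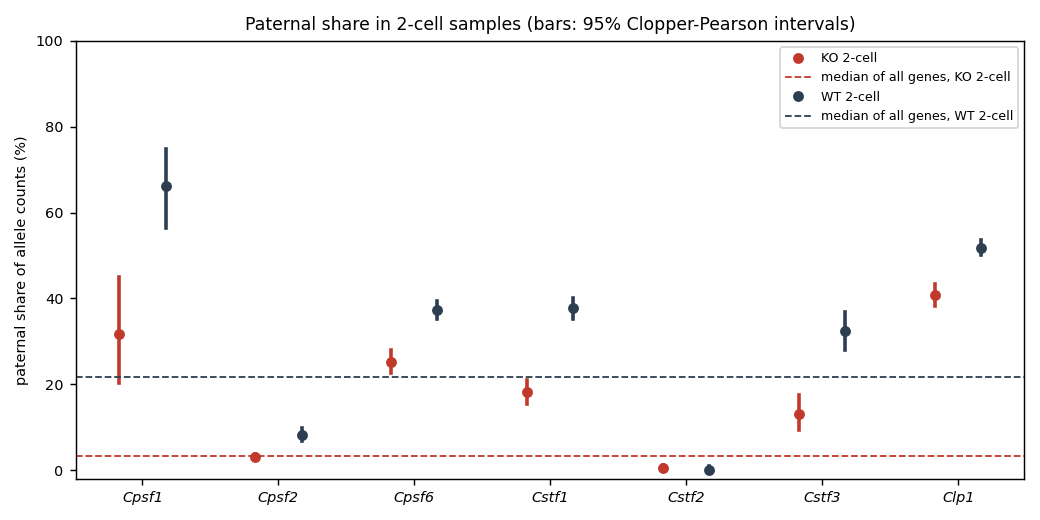
Paternal share of allele counts (%) in KO (left point) and WT (right point) 2-cell samples for the 7 members with 50 or more allele counts in both groups; bars are Clopper-Pearson 95% intervals and dashed lines are the medians of all genes. Clp1 lies near an even split in both groups, Cpsf2 and Cstf2 (on the X chromosome) lie near 0, and the other members lie lower in KO.

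Other genes of the pathway were counted from lists drawn up with earlier results of these data known. Of 16 further core factors, 15 reached 10 CPM at the 2-cell stage, none was 2-fold higher in KO and 5 were lower, against 31.6% of all genes lower and 5.96% higher. With TMM factors, DESeq2 size factors or spike-in counts as depth Fip1l1 and Xrn2 were 2-fold higher, and relative to spike-in RNA Cstf2t and Pabpn1 were the only ones lower. Cstf2t, the autosomal retrogene copy of Cstf2, had 6.43 CPM in KO and 56.9 CPM in WT 2-cell samples (-3.15, and -3.92 without KO replicate 3 and WT replicate 8), while Cstf2 itself was at 27.7 CPM in KO and 22.9 CPM in WT. Reads of this closely similar pair may be split between them. Nudt21, the RNA-binding partner of Cpsf6 and Cpsf7 in CFIm, had 28.2 CPM in KO and 73.1 CPM in WT (-1.37). Pabpn1, the nuclear poly(A)-binding protein, was at -2.01 (-2.62 without the same pair of libraries), Rbbp6, a ubiquitin ligase of the cleavage complex, at -1.43, and the poly(A) polymerase Papolb at -1.28. Relative to spike-in RNA Nudt21 was at -0.55, Rbbp6 at -0.60, Pabpn1 at -1.19 and Cstf2t at -2.32.

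Wdr33, the CPSF subunit that binds the signal with Cpsf4, was at 0.06 in KO over WT 2-cell samples, and Pcf11, the partner of Clp1 in CFIIm, was at -0.20. Fip1l1, the CPSF subunit that holds poly(A) polymerase, was at 0.89, at 1.25 with TMM factors, at 1.16 with DESeq2 size factors, at 1.71 relative to spike-in RNA, and at 1.27 without KO replicate 3 and WT replicate 8. In oocytes 13 of the 16 core factors reached 10 CPM. By pooled CPM none was 2-fold higher and Sympk, the scaffold Symplekin, was lower in KO, at 7.76 CPM against 17.6 CPM in WT (-1.18). Papola was at 0.89, with medians of 425 CPM in KO and 35.7 CPM in WT oocytes. It was 2-fold higher with equal weight per library and in spike-in libraries alone, where 5.25% and 9.41% of all genes were higher. In the low-Rn45s and remaining sets it was not. With spike-in counts as depth 5 core factors were higher, Papola among them, against 26% of all genes. Within the technical sets the Sympk ratio was -0.97 with spike-in RNA, -0.38 in the low-Rn45s set and 0.38 in the remaining set. From oocyte to 2-cell stage in WT, 6 of 16 core factors were higher and 4 lower, against 41.1% of all genes higher and 14.3% lower. Cstf2t (5.35), Rbbp6 (4.80), Nudt21 (4.17), Pabpn1 (4.10) and Pcf11 (1.22) were higher, and Papolb had 36.8 CPM in WT 2-cell samples against no count in any of 14 WT oocytes. Papolg (-2.19), Fip1l1 (-1.77), Xrn2 (-1.65) and Sympk (-1.57) were lower. In KO 4 of 14 core factors were higher and 3 lower at the 2-cell stage, against 23.6% and 17.4% of all genes.

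Of the 4 cytoplasmic polyadenylation genes, none of the 3 at 10 CPM was 2-fold apart between KO and WT oocytes by pooled CPM. Pabpn1l was at 0.80, with medians of 252 CPM in KO and 21.3 CPM in WT oocytes. It was 2-fold higher with equal weight per library and in spike-in libraries alone, where 5.25% and 9.41% of all genes were higher. So it was with spike-in counts as depth (26% of all genes), but not in the low-Rn45s or remaining set. At the 2-cell stage Pabpc1l and Pabpn1l, which encode embryonic poly(A)-binding proteins, were higher in KO. Pabpc1l had 61.7 CPM in KO and 23.3 CPM in WT (1.40), and a ratio of 3.01 without KO replicate 3 and WT replicate 8, and Pabpn1l had 10.7 CPM in KO and 4.43 CPM in WT (1.27). Among 14 Integrator subunits, which form the ends of small nuclear RNAs, 2 of 12 at 10 CPM were lower in KO 2-cell samples, Ints8 (-1.55) and Ints7 (-1.15), against 31.6% of all genes. Ints11 and Ints9, the paralogues of Cpsf3 and Cpsf2, were at -0.50 and -0.54. Of 5 histone pre-mRNA end factors, Slbp, the stem-loop binding protein, was higher in KO, at 5528 CPM against 1544 CPM in WT 2-cell samples (1.84), and none was lower. Without KO replicate 3 and WT replicate 8 Slbp was at 5697 CPM in KO and 873 CPM in WT (2.71).

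In epiblast, the only comparison with a test, 3 members fell in IVC against E6.5 epiblast and none rose. The fit was edgeR's quasi-likelihood test over 11565 genes with Benjamini-Hochberg adjustment at 0.05. It called 23.5% of all genes lower and 12% higher, with a median log2 ratio of -0.85 over all genes and -1.37 over the 10 members, all of which were tested. In 9 of 10 members both IVC libraries lay below both E6.5 libraries, as they did for 53.7% of genes. These are bulk samples, so fewer cells of a type and less RNA per cell cannot be told apart. Each group came from its own table, and the labels do not say whether the libraries came from separate embryos.

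Cpsf1 had 30.1 and 34.3 CPM in IVC epiblast against 182 and 186 CPM in E6.5 epiblast, a log2 ratio of -2.24 ± 0.31 (SE, edgeR adjusted p = 0.0251). Cstf2 had 14.5 and 15.4 CPM in IVC against 109.6 and 105 CPM in E6.5 epiblast, -2.57 ± 0.45 (edgeR adjusted p = 0.0388). Cstf1 had no count in either IVC library against 51.4 and 40.9 CPM in E6.5 libraries (edgeR adjusted p = 0.038), which is at least 305-fold lower when 3 counts are put over the IVC pool. In all of these the libraries of the groups were far apart. Of 7259 genes at 10 CPM or more in both E6.5 libraries, 607 had no count in both IVC libraries, so Cstf1 was not alone in this.

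Cpsf3 had 12 and 3.61 CPM in IVC against 90.5 and 84.3 CPM in E6.5 epiblast, -3.20 ± 0.86, and missed the threshold (edgeR adjusted p = 0.0563). Its IVC libraries differed from each other by more than the E6.5 ones. Cpsf2 (-0.96), Cpsf4 (-1.73), Cpsf6 (-0.35), Cpsf7 (-1.01) and Cstf3 (-0.73) had edgeR adjusted p from 0.172 to 0.291. Clp1 had 43.9 and 0.586 CPM in IVC against 20.4 and 29.8 CPM in E6.5 epiblast, so its IVC libraries lay on either side of the E6.5 ones, and its ratio was 0.12 ± 1.90 (edgeR adjusted p = 0.971).

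DESeq2 called these 3 members and Cpsf3, and without a filter on low counts edgeR called Cpsf1 and Cstf1. Without E6.5 replicate 1 or E6.5 replicate 2 no member was called, and 0.988% and 0.955% of all genes were called lower. The ratios of Cpsf1 were then -2.33 and -2.27, with adjusted p of 0.283 and 0.301 in edgeR, those of Cstf2 were -2.60 and -2.65, and Cstf1 still had no count in IVC, so the calls were lost with the ratios about as large. In the full fit 4 members had an unadjusted p under 0.05. Without IVC replicate 1, 9 members were called, all lower, with Clp1 at -5.14, and 37.9% of all genes were called lower. Without IVC replicate 2, 6 were called, with Clp1 higher at 1.11, and 41.8% of all genes were called lower and 21.9% higher. Summed trophoblast markers were 606 to 657 CPM in IVC and 226 to 241 CPM in E6.5 epiblast, with Cdx2 at 0 in IVC, and summed endoderm markers were 336 to 410.0 CPM in IVC and 62.3 to 87.3 CPM in E6.5 epiblast. Summed epiblast markers were 698 to 718 CPM in IVC and 906 to 1119.6 CPM in E6.5 epiblast. The part of these in the calls was not tested.

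Of the other core factors 1 of 14 rose, Ssu72, a phosphatase that acts on the tail of RNA polymerase, with 265 and 326 CPM in IVC against 38.6 and 35.1 CPM in E6.5 epiblast (3.27 ± 0.27, edgeR adjusted p = 0.00863), and none fell. Of 14 Integrator subunits 1 fell, Ints1, at 0.675 and 0 CPM in IVC against 205 and 210.2 CPM in E6.5 epiblast (edgeR adjusted p = 0.0395). Of 5 histone end factors Slbp rose (2.08 ± 0.50, edgeR adjusted p = 0.0455) and Zfp473 fell (edgeR adjusted p = 0.0493). Of the cytoplasmic list only Papd4 was tested and it was not called (edgeR adjusted p = 0.735). Aurka, which overlaps Cstf1 in RefSeq, had 39.5 and 127 CPM in IVC against 81.1 and 108 CPM in E6.5 epiblast.

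**Figure D5:**
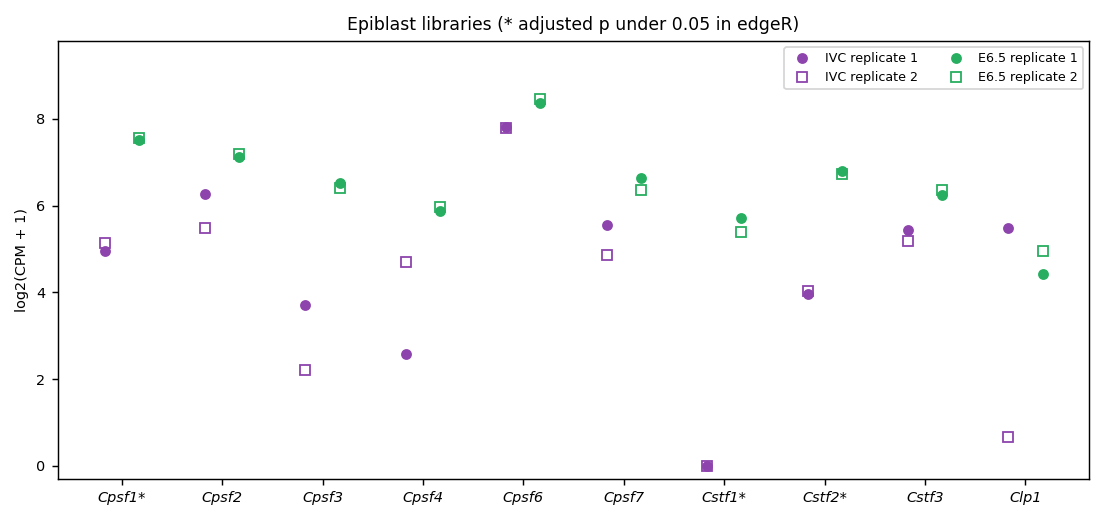
Level of each member as log2(CPM + 1) in the 2 IVC (left, purple) and 2 E6.5 (right, green) epiblast libraries; each mark is 1 library and asterisks mark an edgeR adjusted p under 0.05. Cpsf1, Cstf1 and Cstf2 carry asterisks, Cstf1 lies at 0 in both IVC libraries, and the IVC libraries of Clp1 lie on either side of the E6.5 ones.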

How the data were processed

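The authors deposited raw read counts per gene symbol, with no normalization, in a table of total counts, a pair of tables split by maternal and paternal allele, and a table for each epiblast group. The submitters' processing notes name the build mm9 and, in no stated role, featureCounts 2.0.1, HTSeq 0.10.0 and STAR 2.6.0a, together with cutadapt 1.15, and the strand setting of the counting is not given in the sources used here. The total table had 24542 entries, among them 92 ERCC spike-ins, left out of the totals. In the allele tables all 33 oocyte columns were unsplit, and 1 member value of a 2-cell sample had more allele than total counts.

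From these counts, CPM was computed over the total gene counts of a library, and counts were pooled over the libraries of a group, so deeper libraries weigh more. Ratios are log2 of pooled CPM with exact conditional Poisson intervals at 95%. A gene was compared at 10 CPM or more in either pool and counted from 2-fold. Paternal shares have Clopper-Pearson intervals at 50 or more allele counts. No molecular identifiers are described, so intervals and the limit of 3 counts cover counting error only. No library pair of a group agreed within sampling noise (chi-square per gene of 10.4 or more).

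Epiblast counts were tested with edgeR 4.0.16 (TMM, filterByExpr, quasi-likelihood) in R 4.3.3, joined by symbol over 24446 symbols, with DESeq2 1.42.0 as an alternative. The p-values measure the spread between these libraries, which may be technical. Other work used Python 3.11.15 and scipy 1.17.1. The procedures were tested on simulated data. Correlations are Spearman's rho of log2(CPM + 1).

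The members and the lists were chosen with earlier results of these data known. The text names all 10 members, the genes of the 4 lists that passed 2-fold or were called, direct partners and paralogues whatever their value, the genes next to Cpsf3 and the 5 most like it. Alternatives were other scaling factors, totals without Rn45s, equal weight per library, library sets, no filter, leaving out libraries, a replicate block in epiblast, and, chosen after seeing the data, spike-in counts as depth, the remaining library set alone and the removal of KO 2-cell replicate 3 with WT 2-cell replicate 8. Epiblast replicate numbers shared no deviation (r = 0.00084 over 11565 genes).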

Additional observations from a re-analysis of the deposited data

Results flagged for a closer look

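In 20 pairs of a member and a 2-cell group, 4 had a library far from the others of its group, by a gap test with a nominal chance rate of about 1 of 20 groups. That rate was not checked for skewed CPM values such as these. Most of the flags fall in a single library, so their number is not read as an excess. Clp1 in KO 2-cell replicate 3 was at 372 CPM, against a KO median of 40.9 CPM. The same library held the highest KO values of Cpsf6, at 117 CPM against a median of 30.3 CPM, and of Cpsf7, at 6.29 CPM against a median of 0.506 CPM. It was the shallowest 2-cell library, with 2704050 gene counts, and the only 2-cell library with more Clp1 than every library of the other genotype. Cstf2 in WT 2-cell replicate 8 was at 44.8 CPM, against a WT median of 17.2 CPM, in the deepest WT 2-cell library, with 10303580 counts.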

How the results depend on the processing

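The 12 member ratios that were 2-fold apart between oocyte or 2-cell groups had 336 values under other settings. Of these, 324 stayed 2-fold apart in the same direction, 11 kept the direction under 2-fold and 1 turned. Most of the 336 values left out 1 library of a pool, which changes a pooled ratio little, and all of those stayed 2-fold apart. The 11 all came from TMM factors, DESeq2 size factors or spike-in counts as depth, so the tally does not show that the calls hold under other scales. The turned value is Cpsf3 in KO over WT oocytes of the remaining library set, at -0.04. Other values of Cpsf3 in oocytes were 1.76 with each library weighted equally, 1.84 in spike-in libraries and 2.33 with spike-in counts as depth, and 1.43 to 1.83 without 1 library each. Cpsf3 in KO over WT 2-cell samples was -0.35 with TMM factors, -0.43 with DESeq2 size factors, -1.10 with equal weights and 0.12 with spike-in counts as depth, and -1.21 to -0.58 without 1 library each. The members 2-fold apart in oocytes numbered 3 with no filter, where 12% of all genes were 2-fold higher and 13.6% lower, 2 in the low-Rn45s set (1.98% and 2.03%), 0 in the remaining set (5.17% and 3.73%) and 3, all higher, with spike-in counts as depth (26% and 0.808%). With spike-in counts as depth they numbered 3 in KO over WT 2-cell samples (32.3% higher and 15.3% lower) and 4 in KO 2-cell samples over KO oocytes (7.71% and 39.2%). In the latter comparison by CPM, leaving out 1 library gave 2 to 4. For these shares the level of 10 CPM was read on the spike-in scale, which left 8295 genes in KO over WT 2-cell samples. The 29.6% and 17.3% given earlier for that comparison are over 8416 genes at 10 CPM before that scaling. In the other stage and allele counts leaving out 1 library moved the count by 1 at most. Sympk in KO over WT oocytes was 0.38 in the remaining set. From oocyte to 2-cell stage Ints9 in WT was 1.47 in spike-in libraries and 0.35 with spike-in counts as depth, where Ints4 in WT was -0.02 and Ints11 in KO was -0.05, all turned round. The cause was not tested.

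With the replicate number as a block, edgeR called 0 members in epiblast, against 3 without the block, and 893 genes higher and 361 lower in place of 1389 and 2717. The numbers did not pair the samples. Without any filter 965 and 631 genes were called, and leaving out 1 library gave 0 to 9 members, with the left-out group's lone sample assumed to vary like the other group. Depth limits the members under 10 CPM. The allele splits of Cpsf3 and Cpsf4 rest on few assigned reads, 2.44% and 9.43% of their counts in KO, against 39.5% over all genes.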

Other observations

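Ints9, the Integrator paralogue of Cpsf2, differed more between technical library sets than between genotypes in oocytes. In spike-in libraries its pooled level was 24.1 CPM in KO and 11 CPM in WT oocytes, in the low-Rn45s set 433 CPM in KO and 481 CPM in WT, and in the remaining set 290.2 CPM in KO and 357 CPM in WT. Sets of oocyte libraries were made by measured spike-in and Rn45s shares and are not groups of the study.

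The protein-coding genes on either side of Cpsf3 in RefSeq order are Itgb1bp1 and Iah1. Itgb1bp1 had 53.4 CPM in KO and 99 CPM in WT 2-cell samples (-0.89). Iah1 was under 1 CPM in both oocyte pools and stood at 1.94 CPM in KO and 18.4 CPM in WT 2-cell samples (-3.25). In epiblast, where Cpsf3 was lower in IVC without passing the threshold, both neighbours rose in IVC, Itgb1bp1 by 3.86 ± 0.66 and Iah1 by 3.45 ± 0.64 on the log2 scale (edgeR adjusted p = 0.0385 and 0.0398).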
